A study of Rattus norvegicus with 108 samples.

Results

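AstroSub1 is 1 of 12 cell type names in the authors' annotation of dorsal dentate gyrus (dorDG) cells, and it marks the larger of the annotation's astroglial classes. Taking the cells with that name gave 110 cells of 1289 in dorDG and of 3517 in the whole series. The tissue was punched from brains of male Long-Evans rats of Charles River stock, 2 months old at the start, which received fluoxetine (a serotonin reuptake inhibitor, FT) at 18 mg/kg, or water (Sham), for 6 weeks. Each replicate pooled tissue of several animals. The labels speak of nuclei, whereas in the study's methods both dissociated cells and isolated nuclei were loaded, and neither says which reaction held which. All 10x reactions that carry the same group and replicate number were summed to 1 replicate. AstroSub1 held 49 cells in the 4 FT replicates, namely 10, 16, 11 and 12 cells in replicates 1, 2, 4 and 5. It held 61 cells in the 5 Sham replicates, namely 25, 5, 3, 15 and 13 cells in replicates 1 to 5.

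Astrocytes take up the glutamate released at synapses, couple to each other through gap junctions, carry water and potassium along their processes to blood vessels, and supply neurons with lactate, glutamine and lipoprotein. In the dentate gyrus they share many genes with the radial glia-like stem cells of the subgranular zone. Bergmann glia, by contrast, are specialised astroglia of the cerebellar cortex, and BergGlia, the name of the other astroglial class here, is used as the annotation gives it.

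AstroSub1 cells were shallow. A cell held a median of 2317 unique molecular identifiers (UMIs, the count of captured RNA molecules), within a range of 638 to 9830, and a median of 1422 genes. Summed over cells, a replicate gave from 6106 UMIs in Sham replicate 3 to 67474 in Sham replicate 1. Levels are therefore given as UMIs per 10000 UMIs of the summed cells. Of the dorDG cells, 6 shared a barcode with a cell of another reaction, 1 of them in AstroSub1. Free RNA was present throughout: the myelin gene Mbp had a UMI in 110 of 110 AstroSub1 cells, in 42 of 43 BergGlia cells and in 146 of 147 inhibitory neurons. Its level was 47.3 in AstroSub1 against 141 in Oligodend1.

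The 4 defining astrocyte markers were all high in AstroSub1. These levels define the class and are given as a description, without a test. Slc1a3, the glutamate transporter GLAST, stood at 30.0 UMIs per 10000, 22.8-fold above the other dorDG cells, with a UMI in 89.1% of cells (exact 95% binomial interval 81.7% to 94.2%). Gja1, the gap junction protein connexin 43, stood at 17.4, or 48.8-fold above the other cells. Aqp4, the water channel of astrocyte endfeet, stood at 10.6, or 36.4-fold. Slc1a2, the glutamate transporter GLT-1, stood at 5.87, or 17.0-fold. As a background, Slc1a3 had a UMI in 34.6% of Microglia1 cells and Aqp4 in 10.3% of them, at a median of 6669 UMIs per cell. Slc1a2 had a UMI in 2.80% of Microglia1 cells against 76.4% of AstroSub1 cells.

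**Figure D1:**
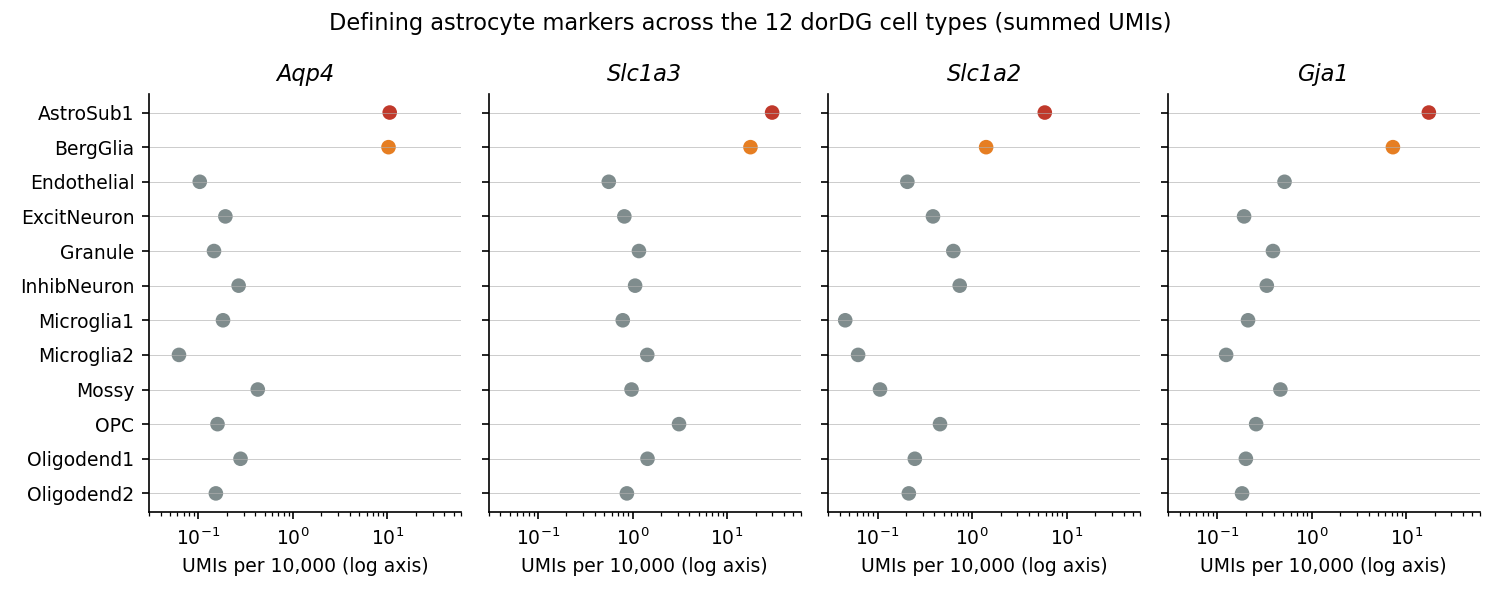
Levels of Aqp4, Slc1a3, Slc1a2 and Gja1 (UMIs per 10000 summed UMIs, log axis) in each of the 12 dorDG cell types, 1 point per type (red AstroSub1, orange BergGlia, grey the others). AstroSub1 had the highest level of each gene, BergGlia came next, and Aqp4 was nearly level between them at 10.6 and 10.3.

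Across the whole class, 1603 genes were detected in at least 25% of AstroSub1 cells, and 421 of them stood at least 2-fold above the other dorDG cells. Among the 25 with the highest ratio, those of small-molecule transport and signalling included Slc7a10, a carrier of serine and glycine (4.94 UMIs per 10000, 43.6-fold), Slc14a1, a urea transporter (1.68, 40.7-fold), Prodh, the first enzyme of proline breakdown (4.23, 26.8-fold), Grin2c, an NMDA receptor subunit (4.81, 31.8-fold), and Entpd2, which breaks down extracellular ATP (2.07, 40.1-fold). Secreted products among them included Agt, the precursor of angiotensin (9.46, 40.8-fold), Cxcl14, a chemokine (3.55, 55.9-fold), the lipoprotein Clu (36.1, 27.0-fold) and Apoc1 (3.84, 42.2-fold). Btbd17 had the highest ratio of all (62.6-fold), on 40 UMIs. Lhx2, a transcription factor of the embryonic hippocampus, was the last of the 25 (2.45, 18.3-fold).

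AstroSub1 was the highest of the 12 types for 23 of these 25 genes. Of the other 11 types, BergGlia was the highest for all 25. Within single replicates, 12 of the 25 were above the other cells in all 9. In Sham replicate 3, with 3 AstroSub1 cells, 11 of the 25 were at 0 UMIs, as were 3 in Sham replicate 2, with 5 cells. In the other replicates none was at 0.

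Of 20 further astrocyte markers, 16 exceeded the remaining dorDG cells by 2-fold or more with a UMI in 10% or more of AstroSub1 cells. The 16 together stood at 216 UMIs per 10000 in AstroSub1, 230 in BergGlia and 13.4 to 32.3 in each of the other types. All 20 together stood at 300.3 in AstroSub1 and highest in Microglia1, at 734, of which Cst3, a cysteine protease inhibitor that did not pass as a marker, made up 719. Of the marker lists of other cell types, the 10 oligodendrocyte genes summed to 70.3 UMIs per 10000 (549 in Oligodend1), with no member at 0 and none passing as a marker. The 10 microglial genes summed to 6.13 (220 in Microglia2), and the 9 endothelial genes measured to 5.03 (128 in Endothelial). For the choroid plexus list AstroSub1 was the highest of the 12 types, at 6.00 UMIs per 10000 against 0.603 in BergGlia. Its gene Ttr, which encodes transthyretin, made up 5.78 of this and passed as a marker, 2.19-fold above the other cells, while Kl, Folr1 and Aqp1 were at 0 UMIs. Of the 179 Ttr UMIs, 154 were in FT replicate 4, 93 of them in a single cell. FT replicates 1 and 2 and Sham replicates 1, 2, 3 and 5 held none, so this rank rested largely on FT replicate 4. Single members also passed from the ependymal list (Rarres2), the mural list (Pdgfrb) and the oligodendrocyte precursor list (Cacng4), each at under 2 UMIs per 10000. Of 12 radial glia-like and stem cell genes measured, 7 passed in AstroSub1, a list that shares members with astrocytes. Its defining gene Nes was at 0 UMIs, but it stood at only 0.012 UMIs per 10000 in the other dorDG cells. It was too sparse for this 0 to be read.

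AstroSub1 cells differed among themselves in how much ribosomal protein mRNA they held. In 69 of 110 cells (62.7%), cytosolic ribosomal protein genes took under 2% of UMIs, and 10 cells lay between 1.5% and 2.5%. The share ran from 0.140% to 9.08%, so the boundary cuts a range and does not define a type. In the replicates with 2 reactions, all 35 cells of the second reaction were below 2%, against 4 of 21 cells of the first. The replicates with a single reaction had 30 of 54 cells below it.

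The genes that moved with this share fell into clear groups, given here as levels over summed cells without a test. Glul, glutamine synthetase, stood at 1.95 UMIs per 10000 in the low-ribosomal cells and at 19.5 in the others. Aldoc, a glycolytic aldolase, stood at 4.96 against 33.3, and Apoe, the main lipoprotein of the brain, at 57.3 against 252. Mt3, a metallothionein, stood at 5.34 against 83.9. In none of the 8 replicates with cells of both kinds were these genes higher in the low-ribosomal cells. Of the markers, Aqp4 stood at 2.56 against 16.6, Gja1 at 4.66 against 26.9 and Slc1a3 at 13.98 against 42.0, and again no replicate had the higher level in the low-ribosomal cells. Slc1a2 went the other way, at 8.04 against 4.24, and was higher in the low-ribosomal cells of 6 replicates.

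Genes of neurotransmitter receptors were among those relatively high in the low-ribosomal cells, where 11 of the 13 genes of the glutamate, GABA and purine receptor list were higher, against 58.4% of all 4304 genes tested below (median log2 ratio 0.51). Single genes of other kinds went the same way. Lsamp, an adhesion protein of the synaptic membrane, stood at 39.5 against 10.3, Zbtb20, a transcription factor of hippocampal and astrocyte development, at 23.6 against 7.52, Nfia at 13.4 against 5.15, and Gabrb1, a GABA-A receptor subunit, at 15.1 against 5.65. These genes were higher in the low-ribosomal cells of all 8 replicates. Gria2, an AMPA receptor subunit, stood at 18.2 against 6.28 and was higher in 7. By list, 9 of 14 transcription factor genes and 10 of 14 secreted synapse and matrix genes were higher in the low-ribosomal cells, both close to the share of all genes. Of the other lists, 19 of 20 glycolysis genes, 71 of 73 oxidative phosphorylation (oxphos) genes and 15 of 15 metallothionein, oxidative stress and iron genes were lower.

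**Figure D2:**
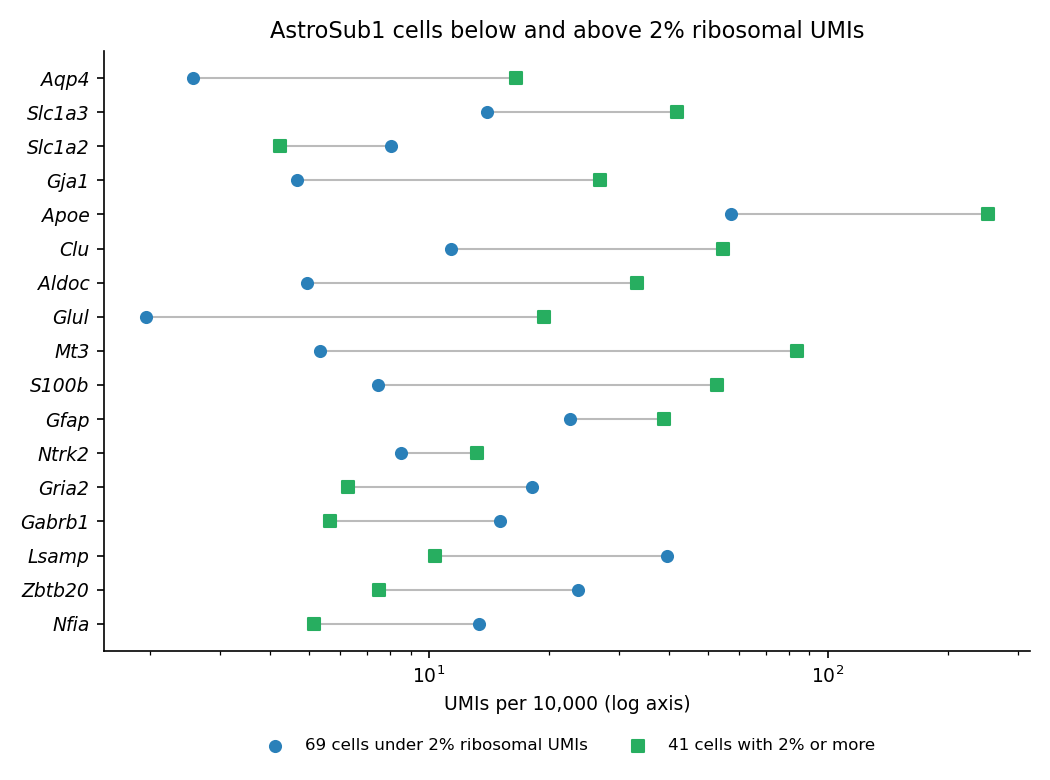
Level of 17 genes (UMIs per 10000, log axis) in the 69 AstroSub1 cells with under 2% ribosomal UMIs (blue circles) and in the other 41 (green squares). Most astrocyte genes were lower in the low-ribosomal cells, whereas Slc1a2, Gria2, Gabrb1, Lsamp, Zbtb20 and Nfia were higher.

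BergGlia, the other astroglial class, held 43 cells at a median of 1025 UMIs and 599 genes. It carried the same 4 defining astrocyte markers and 12 of the 20 further ones. Of 8 Bergmann glia genes, 6 were measured, and 3 passed as markers in BergGlia (Hopx, Fabp7 and Slc1a3), as did 3 in AstroSub1. Hopx stood at 2.39 UMIs per 10000 in AstroSub1 and 2.41 in BergGlia. The Bergmann glia list summed to 26.3 in BergGlia and to 38.4 in AstroSub1. Slc1a3, which is also a defining astrocyte marker, made up 17.7 and 30.0 of these sums. Of the other members, Fabp7 was higher in BergGlia (5.63 against 3.58) and Sept4 in AstroSub1 (1.71 against 0). The list did not set the classes apart, and the name is kept here only as the annotation's label.

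The classes differed in the balance of astrocyte genes. The following ratios compare clusters of the same cells and are descriptions, with exact 95% intervals for counting error alone. Slc1a2 was 4.17-fold higher in AstroSub1 (5.87 against 1.41 UMIs per 10000, interval 1.99 to 10.53) and higher in 7 of 8 replicates with both classes. Gja1 was 2.40-fold higher (17.4 against 7.24, 1.71 to 3.46) and Slc4a4, the sodium bicarbonate cotransporter, 2.52-fold (3.55 against 1.41, 1.18 to 6.42). Aqp4 stood at 10.6 against 10.3 (ratio 1.03, 0.765 to 1.41), and Apoe at 168 against 160 (ratio 1.05, 0.976 to 1.13). S100b, a calcium-binding protein, was lower in AstroSub1 (33.3 against 57.3, ratio 0.582, 0.510 to 0.666), as was Glul (11.9 against 21.7, ratio 0.550, 0.443 to 0.688).

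Several of these ratios moved with the ribosomal share, since low-ribosomal cells made up 62.7% of AstroSub1 and 20.9% of BergGlia. Among cells with at least 2% ribosomal UMIs, 41 of AstroSub1 and 34 of BergGlia, Aqp4 stood at 16.6 against 9.43 UMIs per 10000 (ratio 1.76, 1.24 to 2.56), Gja1 at 26.9 against 6.55 (4.11, 2.75 to 6.42) and Apoe at 252 against 181 (1.40, 1.29 to 1.51). S100b stood at 52.8 against 71.0 (0.744, 0.650 to 0.855) and Glul at 19.5 against 27.2 (0.714, 0.572 to 0.898), closer to 1 than over all cells. Among low-ribosomal cells, with 9 in BergGlia, Aqp4 stood at 2.56 against 12.97 (0.197, 0.104 to 0.389) and Gja1 at 4.66 against 9.51 (0.490, 0.256 to 1.03). Apoe stood at 57.3 against 92.5 (0.619, 0.505 to 0.765), so these genes had the lower level in AstroSub1 there. S100b (0.615, 0.350 to 1.17) and Glul (0.565, 0.196 to 2.23) were also lower there, with intervals that included 1. Slc4a4 was near level in these cells, at 5.94 against 6.05 (0.981, 0.454 to 2.52). In the other cells Slc4a4 stood at 1.75 against 0. Slc1a2 was higher in AstroSub1 in both kinds of cells, with ratios of 4.05 (1.52 to 15.2) and 3.10 (1.03 to 15.3), the latter on 3 UMIs in BergGlia.

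Of 1341 genes detected in at least 25% of the cells of the higher class, 512 (38.2%) were at least 2-fold higher in AstroSub1 and 123 (9.17%) in BergGlia. A gene entered through detection in the class where it was higher, and 1603 genes were detected in 25% of the cells of AstroSub1 but 521 in the shallower BergGlia, so the counts favour AstroSub1 by construction. When only low-ribosomal cells were compared, the counts were 235 and 241, and among the other cells they were 541 and 97. Only 9 BergGlia cells were low-ribosomal.

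Pcdh7, a protocadherin, had 165 UMIs in AstroSub1 and 0 in BergGlia, where a count of 3 would make the difference at least 8.83-fold. The other 14 genes with the highest ratio had 1 UMI each in BergGlia. Fam19a5, a secreted brain protein, had 83 UMIs in AstroSub1 (13.3-fold, 2.33 to 533), Zfpm2, a cofactor of GATA transcription factors, 70 (11.2-fold, 1.95 to 450), and Abl2, a tyrosine kinase, 57 (9.15-fold, 1.58 to 368). The 15 genes were picked by their ratio in these cells after a detection filter that they passed through AstroSub1, so nothing is read from their direction.

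The 15 genes with the highest ratio in BergGlia, picked in the same way, had from 23 to 118 UMIs in AstroSub1. Tuba1a, an alpha-tubulin, stood at 19.9 UMIs per 10000 against 3.81 in AstroSub1 (5.22-fold, 3.96 to 6.88). Cd9, a membrane tetraspanin, was 5.06-fold higher (10.45 against 2.07), Sirt2, a deacetylase of myelinating cells, 4.98-fold (8.04 against 1.61), and Atp5g2, a subunit of ATP synthase, 3.11-fold (6.63 against 2.13). Cnp, a myelin enzyme, was 3.22-fold higher (6.03 against 1.87). Within single replicates the 15 genes were higher in BergGlia in 4 to 8 of 8, and only 2 genes, Tuba1a and Atp5g2, in all 8. Sirt2 was higher in 6, and Cd9 and Cnp in 5 each. The 10 oligodendrocyte genes together were near level, at 73.6 in BergGlia and 70.3 in AstroSub1. Among low-ribosomal cells 4 of the 15 had the higher level in AstroSub1 and 4 were too sparse to place. By list, oxphos genes summed to 318 per 10000 in BergGlia and 175 in AstroSub1, and cytosolic ribosomal protein genes to 550 and 261.

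**Figure D3:**
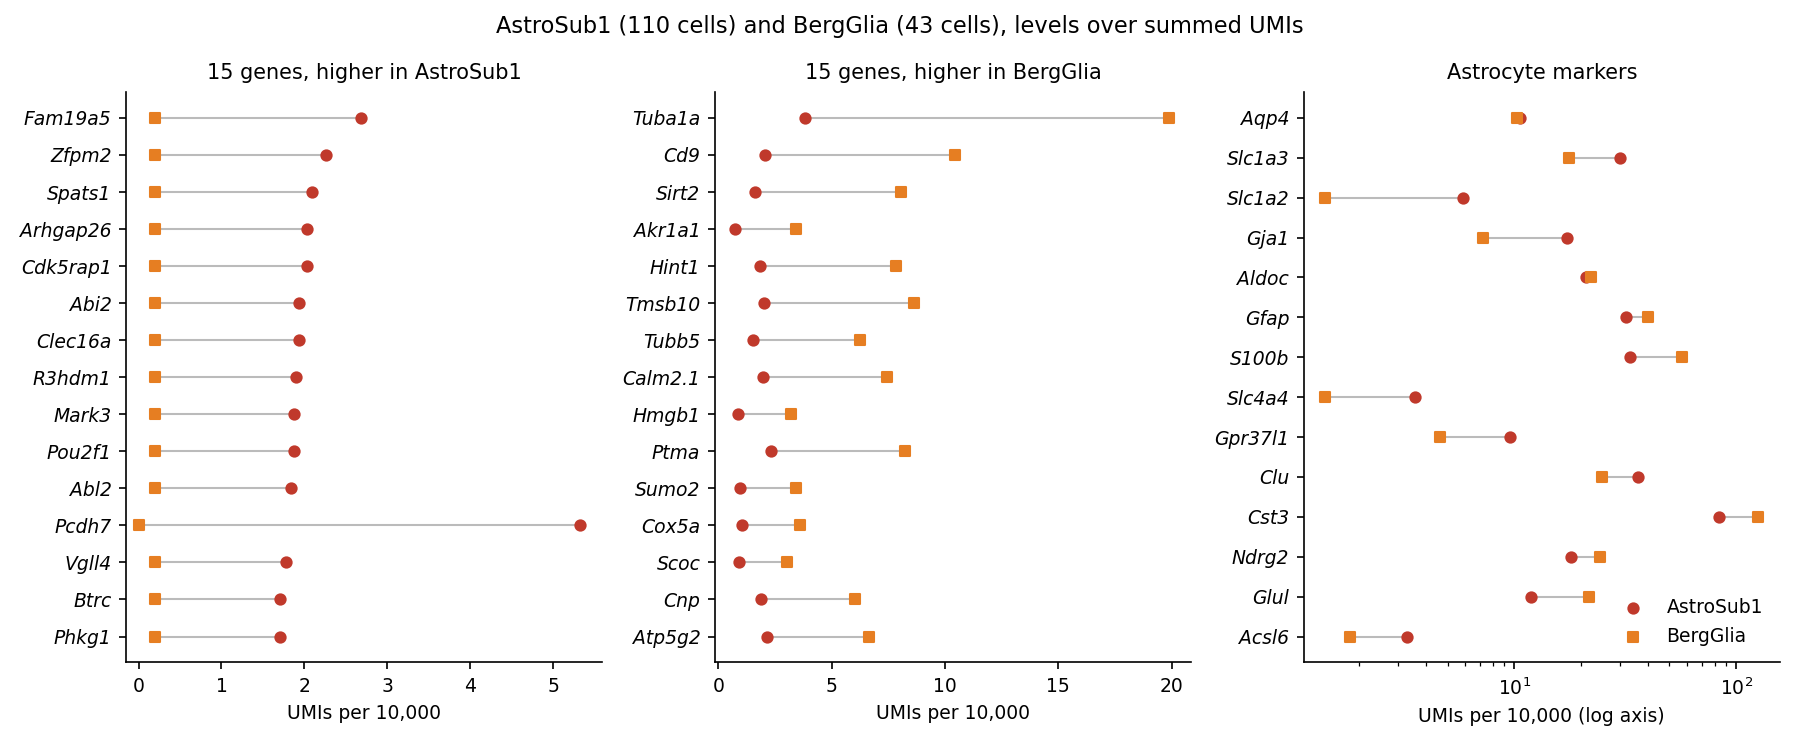
Levels (UMIs per 10000) in AstroSub1 (red circles) and BergGlia (orange squares) of the 15 genes with the highest ratio each way, on linear axes, and of 14 astrocyte markers on a log axis. Tuba1a reached 19.9 in BergGlia, whereas the genes higher in AstroSub1 lay between 1.71 and 2.68 in AstroSub1 except for Pcdh7 at 5.32.

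Whether FT changed the abundance of these astrocytes was asked with 1 value per replicate and two-sided exact permutation tests. AstroSub1 made up 6.99%, 8.12%, 8.40% and 12.1% of the dorDG cells in FT replicates 1, 2, 4 and 5, and 10.9%, 3.62%, 3%, 11.1% and 11.2% in Sham replicates 1 to 5. The means were 8.91% ± 2.23 (SD, n = 4) and 7.96% ± 4.25 (SD, n = 5), and the Sham values spanned the FT values but for the highest (exact permutation p = 0.675, 126 splits). BergGlia made up 30.1% ± 13.3 of the astroglial cells in FT and 24.4% ± 4.94 in Sham (SD, n = 4 each, exact permutation p = 0.514). Neither difference exceeded the spread between replicates.

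Depth was compared over the replicates with at least 5 AstroSub1 cells, which left out Sham replicate 3. The median UMIs per AstroSub1 cell were 2663.5, 2305, 3420 and 2979.5 in FT replicates 1, 2, 4 and 5, and 2006, 2300, 1460 and 1519 in Sham replicates 1, 2, 4 and 5. Every FT value was above each of these Sham values, by only 5 UMIs at the closest. Sham replicate 3, with 3 cells, had a median of 2378 UMIs, above that of FT replicate 2, so with it the groups overlapped. The means were 2842 ± 474 and 1821 ± 402 (SD, n = 4 each, exact permutation p = 0.0286, the smallest that 70 splits allow), and over the 8 per-replicate comparisons the Benjamini-Hochberg adjusted p was 0.229. With FT replicate 2 left out p stayed at 0.0286, and with any other replicate left out it was 0.0571 (exact permutation). Within cells of at least 2% ribosomal UMIs the difference was 679.5 UMIs (p = 0.467, 4 FT and 2 Sham replicates) and within low-ribosomal cells 161 UMIs (p = 0.571, 4 FT and 3 Sham replicates, exact permutation). Thinned to 1000 UMIs, a cell held 708 ± 25.3 genes in FT and 731 ± 26.4 in Sham (SD, n = 4 each, exact permutation p = 0.229). At that depth 46 FT and 52 Sham cells were kept and 3 and 9 were left out.

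Low-ribosomal cells made up 50%, 56.3%, 45.5% and 50% of AstroSub1 in FT replicates 1, 2, 4 and 5, and 84%, 80%, 66.7% and 46.2% in Sham replicates 1, 2, 4 and 5. The groups overlapped only through Sham replicate 5. The means were 50.4% ± 4.43 and 69.2% ± 17.1 (SD, n = 4 each, exact permutation p = 0.114). Within the second reactions, 10 of 10 FT and 25 of 25 Sham cells were low-ribosomal, and within the first reactions 4 of 16 and 0 of 5 were. Sham replicate 1 alone gave 21 of its 25 cells through its second reaction.

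The oxphos genes, which encode the respiratory chain and ATP synthase, took 2.34%, 1.88%, 1.89% and 2.04% of AstroSub1 UMIs in FT replicates 1, 2, 4 and 5, and 1.20%, 1.146%, 2.03% and 1.82% in Sham replicates 1, 2, 4 and 5. Sham replicate 4 lay within the FT range. The lowest of these Sham values were those of replicates 1 and 2, which had the highest shares of low-ribosomal cells of the 4. The part of the low-ribosomal share in these values was not tested. The means were 2.04% ± 0.214 and 1.55% ± 0.443 (SD, n = 4 each, exact permutation p = 0.114). With cells weighted equally, a difference of 0.699 percentage points was at the smallest p the splits allow (0.0286). Mitochondrially encoded genes took 7.41% ± 1.16 and 6.14% ± 1.19 (p = 0.171, exact permutation) and ribosomal protein genes 2.99% ± 0.120 and 2.42% ± 1.06 (p = 0.429, exact permutation; SD, n = 4 each). Within low-ribosomal cells the oxphos difference was 0.130 points (exact permutation p = 0.114, 4 FT and 3 Sham replicates), and within the other cells 0.182 points (exact permutation p = 0.600, 4 FT and 2 Sham replicates).

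Expression was then compared gene by gene with the edgeR quasi-likelihood test on summed counts of the 4 FT and 4 Sham replicates with at least 5 AstroSub1 cells, which left out Sham replicate 3. Of 4304 genes tested, 1 gene (0.0232%) was called, by a Benjamini-Hochberg adjusted p no larger than 0.2 with a log2 fold change of 0.32 or more in either direction. By the unadjusted p, 258 genes (5.99%) were under 0.05, with 140 (3.25%) higher and 118 (2.74%) lower in FT. DESeq2 and limma called 0 genes, with 106 genes under an unadjusted 0.05 by DESeq2 and 140 or 266 by limma at a pseudocount of 0.01 or 0.5. The genes tested held a median of 29 UMIs in all, so single genes were measured with few molecules.

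The gene called was Gsn, which encodes gelsolin, a protein that severs and caps actin filaments. Gsn stood at 1.58, 7.65, 1.19 and 2.17 UMIs per 10000 in FT replicates 1, 2, 4 and 5, and at 0.296, 0.678, 0.309 and 1.02 in Sham replicates 1, 2, 4 and 5. Every FT value was above every Sham value, though FT replicate 4 exceeded Sham replicate 5 only narrowly. It rose by a log2 fold change of 2.74 ± 0.62 (SE; adjusted p = 0.134, edgeR). These levels rested on 63 UMIs, 37 of them in FT replicate 2, where 11 of 16 cells held one and no cell held more than 11. Over all AstroSub1 cells 25.5% held a Gsn UMI, at a median depth of 2317 UMIs. The share was higher in the types Mossy (30.6%) and OPC (35.6%), at median depths of 4722.5 and 6104 UMIs. It was highest in Oligodend1 (58.5%) and Oligodend2 (87.4%). In the remaining types it ran from 6.80% in Microglia2 to 16.7% in Endothelial, at median depths of 1925 and 2945 UMIs. Without FT replicate 2 the log2 fold change was 1.72 and the adjusted p 0.922. The call was also lost without Sham replicate 1 (log2 fold change 2.39, adjusted p = 0.648), without Sham replicate 2 (2.76, 0.300) and without Sham replicate 4 (2.54, 0.438; edgeR). With the replicate number as a block, the log2 fold change was 2.26 and the adjusted p 0.509 (edgeR).

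Gsn was most abundant in oligodendrocytes, at 7.42 UMIs per 10000 in Oligodend1 and 7.55 in Oligodend2, against 2.03 in AstroSub1 and 1.81 in BergGlia. The summed level of the 10 oligodendrocyte genes in AstroSub1 was 53.3 to 93.3 in FT and 30.3 to 236 in Sham, and in FT replicate 2, where Gsn was highest, it was 55.4. FT exceeded Sham in Gsn within the low-ribosomal cells (1.66 against 0.254, on 9 and 2 UMIs) and within the others (4.45 against 0.702, on 47 and 5 UMIs). Within the first reactions it stood at 6.64 against 0.354, on 38 UMIs in FT, 35 of them in FT replicate 2, and on 1 in Sham. Within the second reactions it stood at 1.75 against 0.371 on 4 and 2 UMIs, and within the single reactions at 1.75 against 0.590 on 14 and 4 UMIs, so the Sham levels rested on single molecules. Whether the effect of FT on Gsn differed from that in all other dorDG cells was tested as an interaction, with a difference in log2 fold change of 2.35 ± 0.68 (SE, adjusted p = 0.999, edgeR). Over all genes this interaction gave 0 calls, with 162 genes (3.76%) at an unadjusted p under 0.05. A change particular to AstroSub1 was therefore not detectable. For BergGlia the FT comparison was not run, since only 2 replicates per group held 5 cells.

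**Figure D4:**
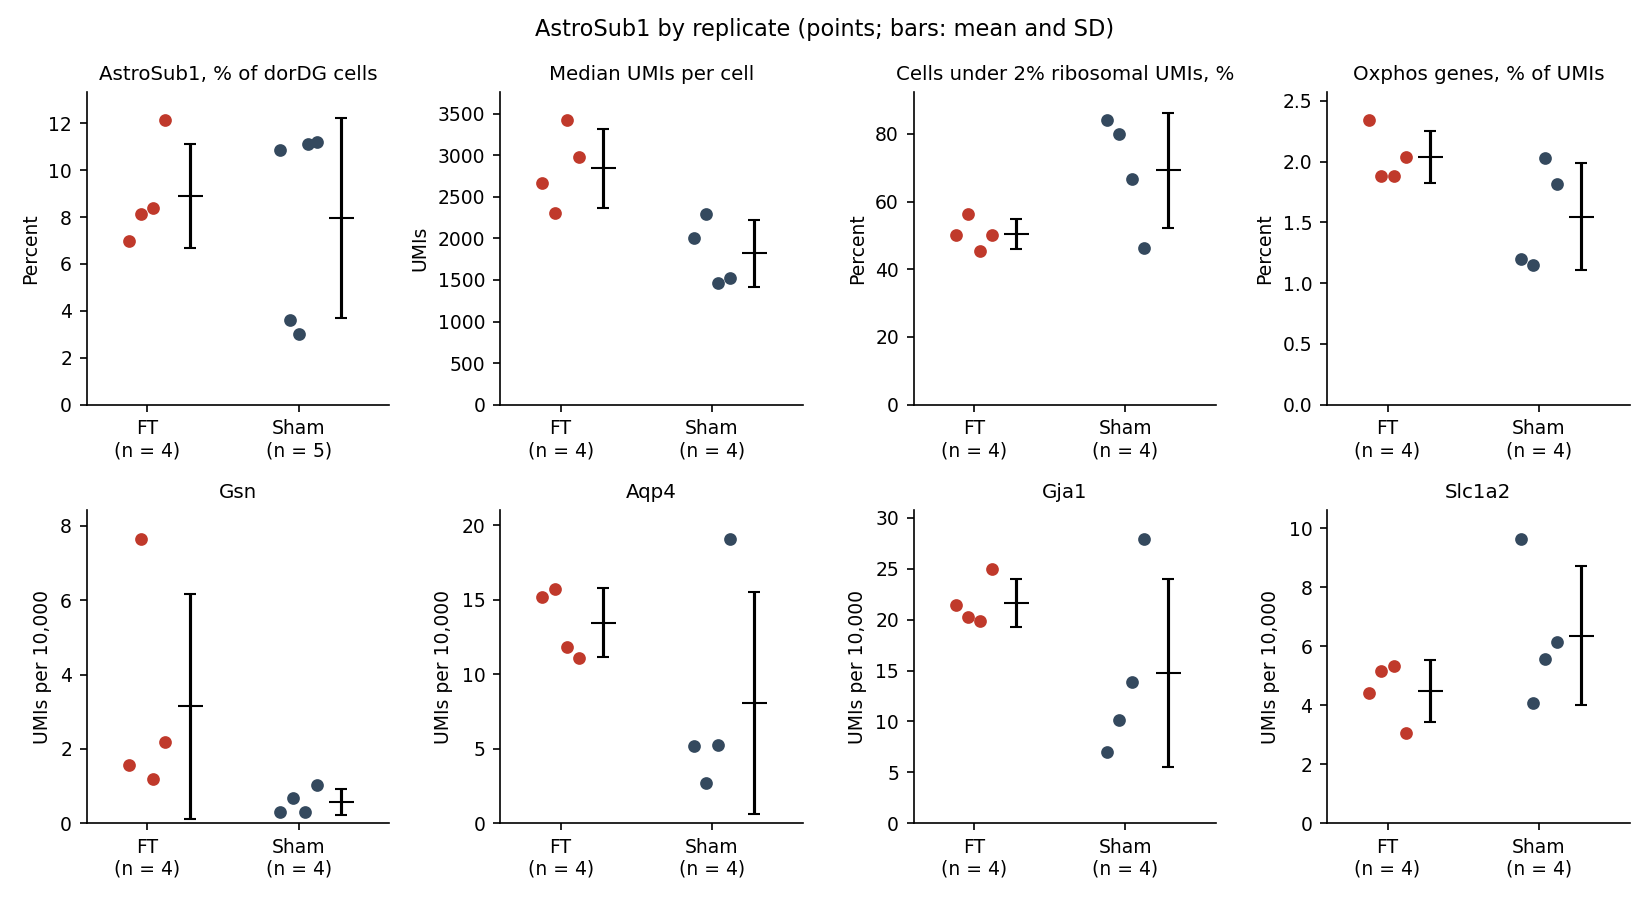
Values by replicate in FT (red) and Sham (dark), with the mean and SD beside the points and all axes from 0. Top, share of AstroSub1 among dorDG cells, median UMIs per cell, share of low-ribosomal cells and oxphos share of UMIs; bottom, UMIs per 10000 of Gsn, Aqp4, Gja1 and Slc1a2. Among the replicates with at least 5 AstroSub1 cells, Gsn and the median UMIs per cell did not overlap between the groups. FT replicate 2 carried the highest Gsn level (7.65).

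The defining markers did not pass the test. Aqp4 stood at 15.1, 15.7, 11.9 and 11.1 UMIs per 10000 in FT replicates 1, 2, 4 and 5 and at 5.19, 2.71, 5.26 and 19.1 in Sham replicates 1, 2, 4 and 5. Sham replicate 5 alone exceeded the FT values (log2 fold change 0.79 ± 0.42 SE, adjusted p = 0.826, edgeR). Without it Aqp4 was called (log2 fold change 1.65, adjusted p = 0.135), as 1 of 10 genes called in that fit. Sham replicate 5 was also the Sham replicate with the lowest share of low-ribosomal cells (46.2%). The part of this share in its Aqp4 level was not tested. Gja1 stood at 19.9 to 24.96 in FT and 6.97 to 27.9 in Sham (0.66 ± 0.40, adjusted p = 0.840), Slc1a3 at 19.3 to 40.8 and 11.53 to 37.8 (0.24 ± 0.39, adjusted p = 0.941), and Slc1a2 at 3.04 to 5.34 and 4.07 to 9.63 (-0.49 ± 0.41, adjusted p = 0.898; all log2 fold change ± SE, edgeR).

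The function lists are described by counts, with no test over a list. None held a called gene, apart from the lists that contain Gsn, and over all genes the median log2 fold change was 0.03. Of 73 oxphos genes tested, 66 were higher in FT by sign (median 0.48), against 51.7% of all genes, and 5 had an unadjusted p under 0.05, a share close to the 5.99% of all genes. Cox8a and Cox4i1, subunits of cytochrome c oxidase and the most abundant of the list, had log2 fold changes of 0.56 ± 0.39 and 0.46 ± 0.40 (SE, adjusted p = 0.878 and 0.911, edgeR). Of 81 cytosolic ribosomal protein genes 71 were higher by sign (median 0.42), and of 13 mitochondrially encoded genes 12 were (median 0.30). In the low-ribosomal cells 71 of 73, 81 of 81 and 13 of 13 of these genes were lower, whereas 58.4% of all genes were higher there. The part of the low-ribosomal share in these signs was not tested.

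Among metabolic lists, 17 of 20 glycolysis, lactate and glycogen genes were higher in FT by sign (median 0.51), against 51.7% of all genes. Of the 20, 3 (Eno1, Pkm and Ldha) were higher at an unadjusted p under 0.05, as were 3.25% of all genes. Aldoc had a log2 fold change of 0.53 ± 0.39 and Aldoa of 0.50 ± 0.40 (SE, adjusted p = 0.880 and 0.895, edgeR). In the metallothionein, oxidative stress and iron list 12 of 15 were higher (median 0.47), and in cholesterol synthesis 10 of 16 (median 0.32). In lipid transport 6 of 10 were higher (median 0.10). The cholesterol and lipid counts were near the share of all genes. In the low-ribosomal cells 19 of 20 glycolysis, 15 of 15 metallothionein, 12 of 16 cholesterol and 7 of 10 lipid genes were lower, whereas 58.4% of all genes were higher there. The part of the low-ribosomal share in these signs was not tested. Apoe stood at 156 to 254 UMIs per 10000 in FT and at 64.4 to 233 in Sham (log2 fold change 0.54 ± 0.38, SE, adjusted p = 0.878, edgeR), and Clu had a log2 fold change of 0.58 ± 0.39 (adjusted p = 0.878).

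The lists of astrocyte function at the synapse were mixed. In glutamate and GABA uptake and metabolism 5 of 8 genes were higher in FT (median 0.16). Glul stood at 10.4, 18.2, 9.49 and 22.4 UMIs per 10000 in FT replicates 1, 2, 4 and 5 and at 6.08, 7.46, 12.4 and 7.16 in Sham replicates 1, 2, 4 and 5, and only Sham replicate 4 reached into the FT range (1.01 ± 0.40, log2 fold change and SE, adjusted p = 0.787, edgeR). In the gap junction, water, ion and acid-base list 6 of 9 were higher (median 0.22), against 51.7% of all genes. Of 13 glutamate, GABA and purine receptor genes 11 were lower in FT (median -0.47), and of 14 secreted synapse and matrix genes 11 were lower (median -0.18). In the low-ribosomal cells 11 of the 13 and 10 of the 14 were higher, against 58.4% of all genes tested. The part of the low-ribosomal share in these signs was not tested.

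Few genes of reactive astrocytes were measurable. Of the 23 genes measured, 3 passed the filter, all of them higher in FT with an unadjusted p under 0.05: Gsn, Hspb1, a small heat shock protein, and Gfap, the intermediate filament of astrocytes. Gfap stood at 32.5, 85.8, 12.5 and 17.4 UMIs per 10000 in FT replicates 1, 2, 4 and 5 and at 28.8, 4.07, 17.3 and 30.3 in Sham replicates 1, 2, 4 and 5. The groups overlapped, and FT replicate 2 was again the highest (log2 fold change 0.92 ± 0.45 SE, adjusted p = 0.820, edgeR). Hspb1 held 21 UMIs, 16 of them in FT replicate 2 (3.31 UMIs per 10000) and 0 in the 69 low-ribosomal cells. It passed the level filter through that replicate, so nothing is read from the shared direction of these 3 genes. In the actin list 13 of 16 genes were higher in FT (median 0.19), against 51.7% of all genes.

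Few genes of monoamine and activity signalling passed the filter. Of 17 serotonin and noradrenaline receptor and enzyme genes measured, 3 passed the filter, all lower in FT by sign (median -0.38). Of 16 immediate early genes 5 were tested, 2 of them higher in FT (median -0.47). All 5 were lower in low-ribosomal cells, whereas 58.4% of all genes were higher there. Fos, an immediate early transcription factor, stood at 1.26, 3.10, 5.63 and 8.03 UMIs per 10000 in FT replicates 1, 2, 4 and 5 and at 1.78, 4.75, 3.40 and 2.73 in Sham replicates 1, 2, 4 and 5, and the groups overlapped (log2 fold change 0.77 ± 0.46 SE, adjusted p = 0.840, edgeR). Within low-ribosomal cells alone, a comparison chosen after seeing the data, Fos was called in a fit of the 4 FT and 3 Sham replicates with at least 5 such cells (4.57 ± 0.99, adjusted p = 0.0188, edgeR). FT replicates 1, 2, 4 and 5 held 0, 1, 11 and 19 Fos UMIs there, and Sham replicates 1, 4 and 5 held 1, 0 and 0, so the FT molecules came almost wholly from 2 replicates. Within the other cells it had 44 UMIs in 17 of 24 FT cells and 37 in 12 of 17 Sham cells (-0.04, adjusted p = 0.996). In the second reactions, where every cell was low-ribosomal, Fos had 0 UMIs in 10 FT cells and 1 in 25 Sham cells, so the FT molecules came from other reactions. Btg2 had 0.62 ± 0.59 (adjusted p = 0.911). In growth factor and neurotrophin signalling 4 of 11 were higher (median -0.06). Ntrk2, the receptor of BDNF, stood at 7.65 to 13.6 in FT and 5.43 to 18.1 in Sham (0.03 ± 0.40, adjusted p = 0.988), and S100b had 0.44 ± 0.39 (adjusted p = 0.911). Of 7 glucocorticoid response genes 4 were higher (median 0.50), and of 14 transcription factor genes 6 were (median -0.21), against 51.7% of all genes.

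In all, 172 of 4304 genes (4%) had FT and Sham replicates that did not overlap, and 89 of these also had an unadjusted p under 0.05, 47 higher and 42 lower in FT. The values of the most extreme are given without a claim of change. The 10 highest log2 fold changes ran from 1.96 to 2.92 on 16 to 63 UMIs per gene, with adjusted p from 0.134 to 0.739 (edgeR). Besides Gsn they were Nars and Sars, which charge the tRNAs of asparagine and serine, Sf3b2 and Rbm25, of pre-mRNA splicing, Psmb4, a proteasome subunit, Vps52, of retrograde vesicle transport, Depdc5, of the GATOR1 complex, Fam134c and Aamdc. Nars held UMIs in all 4 FT replicates (0.631 to 1.78 UMIs per 10000) and in 1 Sham replicate (0.296).

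The 10 lowest ran from -3.66 to -2.23 on 13 to 29 UMIs per gene, with adjusted p from 0.367 to 0.787 (edgeR). They were Zpbp, Tmem44, Gna13, a G protein alpha subunit, Ppp1r12b, a regulatory subunit of myosin phosphatase, Tdrd3, Trappc9.1, Cdh8, a cadherin, Pgm2l1, Il1rap, the interleukin 1 receptor accessory protein, and MORF4L1. Ppp1r12b stood at 0, 0.207, 0.296 and 0.217 UMIs per 10000 in FT replicates 1, 2, 4 and 5 and at 2.22, 0.678, 1.55 and 1.70 in Sham replicates 1, 2, 4 and 5, so the groups were apart but FT rested on single molecules. The 10 lowest averaged 0.0517 to 0.237 UMIs per 10000 in FT and 0.946 to 1.63 in Sham. They passed the level filter of 0.5 through Sham, where low-ribosomal cells were the larger share, and the 10 highest except Gsn passed it through FT. All 10 lowest were relatively high in low-ribosomal cells, as were 5 of the 10 highest and 58.4% of all genes. Nothing is read from these counts.

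The direction of the FT difference moved with the low-ribosomal share across genes. Of the 118 genes lower in FT at an unadjusted p under 0.05, 92.4% were higher in low-ribosomal cells, and of the 140 higher in FT, 12.9% were, against 58.4% of all genes. Both values were computed from the same cells, and low-ribosomal cells were fewer in FT. Within low-ribosomal cells alone, 108 of 108 testable genes of the lower set and 85 of 91 of the higher set kept their sign, and 23 and 17 had an unadjusted p under 0.05. Within the other cells 50 of 56 and 136 of 136 kept it, and 12 and 38 had such a p. With the low-ribosomal share of each replicate as a covariate, 104 of 118 and 139 of 140 did, and 16 and 45 had such a p. These subsets hold cells that also made up the whole, so the counts are a description.

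**Figure D5:**
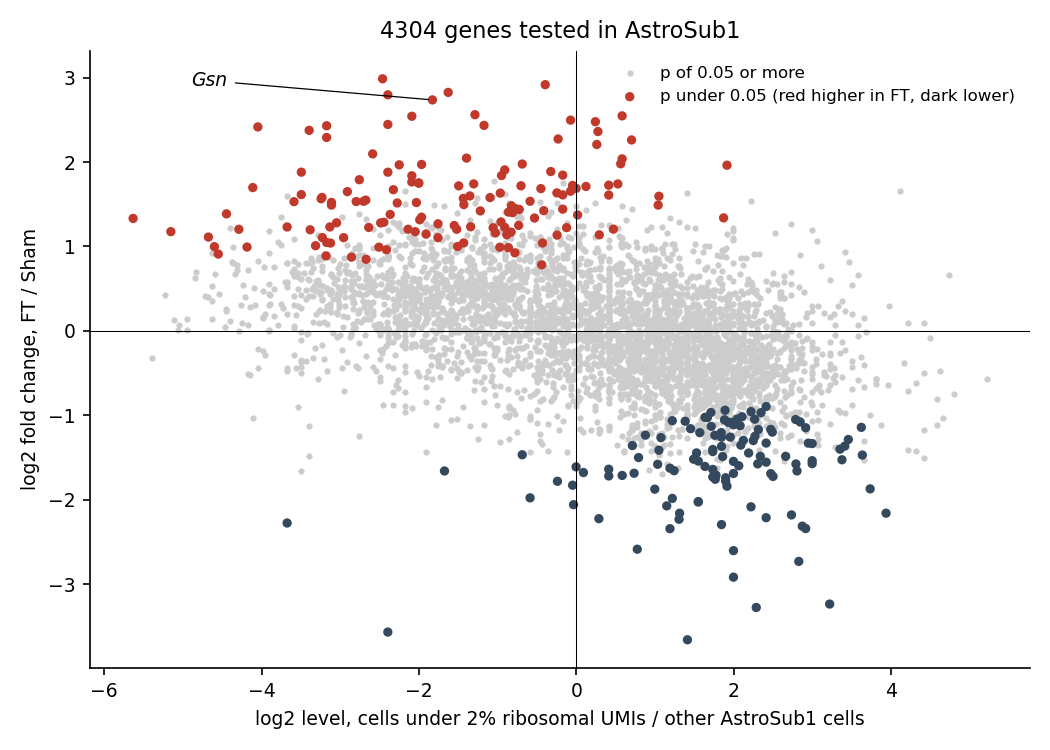
Each of the 4304 genes tested, by the log2 ratio of its level in low-ribosomal to other AstroSub1 cells (horizontal) and its log2 fold change of FT over Sham (vertical). Coloured points have an unadjusted p under 0.05; 109 of the 118 lower in FT lie to the right of 0 and 18 of the 140 higher in FT do, with Gsn at -1.83 and 2.74.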

How the data were processed

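The authors aligned 10x Genomics 3′ v2 libraries and counted UMIs with Cell Ranger (the submitters' processing notes name build rn5 and Seurat 3). The deposited table holds raw UMI counts per gene and cell (19127 genes). The deposited annotation gives each cell's type, which was used as named. The filters written in the study (at least 1000 genes, at most 20000 UMIs and 25% mitochondrial reads) would keep 80 of the 110 AstroSub1 cells, and all 110 were used. No doublet caller was run. A deposited log-normalized matrix of ventral cells was not used.

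Counts were summed per label replicate (52 dorDG libraries, 13 reactions) and tested with edgeR 4.0.16 (quasi-likelihood F-test, TMM, a mean of at least 0.5 UMIs per 10000, replicates with at least 5 cells), in R 4.3.3. DESeq2 1.42.0 and limma 3.58.1 were alternatives. Thresholds (adjusted p of 0.2, log2 fold change of 0.32) are the study's. A count model replaced the study's Student test on log values. Per-replicate values were compared by exact permutation tests at 0.05 (scipy 1.17.1). Intervals and floors (3 counts) cover counting error only, as PCR and cell sampling add to it. Replicates are pools, so p-values measure the spread between pools. The count tests were tested on simulated data.

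The cells, gene lists and tests were chosen with earlier results of these data known. Named genes are every called gene, the 10 highest and 10 lowest log2 fold changes among genes with an unadjusted p under 0.05 and groups that do not overlap, the 25 genes with the highest ratio to other dorDG cells, the 15 with the highest ratio each way against BergGlia, marker and function lists by counts, and the most abundant list members. Unnamed loci, ribosomal and mitochondrially encoded genes were left out of ranked picks. Symbols such as Trappc9.1 are written as the table has them. The ribosomal and oxphos sets hold 120 and 79 genes, defined by symbol, and include copies that may share reads. One list example is not reported here.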

Additional observations from a re-analysis of the deposited data

Results flagged for a closer look

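In groups of 4 or 5 replicates, a value whose gap to its nearest neighbour takes up most of the group's range was singled out. Of 32 groups examined, 6 gave such a value, and chance gives about 1 in 20. Sham replicate 5 stood apart in the mitochondrially encoded share (7.91%, the other Sham replicates 5.43% to 5.78%) and in Aqp4 (19.1 UMIs per 10000, the others 2.71 to 5.26). FT replicate 2 stood apart in Gsn (7.65, the other FT replicates 1.19 to 2.17). Sham replicate 2, with 5 cells, held a summed oligodendrocyte marker level of 236 (the others 30.3 to 61.2), and oligodendrocyte genes were also high in its other dorDG cells (321, against 136 to 166 in the other Sham replicates of the test). The choroid plexus markers were at 45.6 in FT replicate 4 (the others 0 to 1.30) and at 6.50 in Sham replicate 4 (the others 0 to 0.445). They rested on Ttr, the transthyretin of choroid plexus, with 154 UMIs in FT replicate 4. Of these, 93 were in a single cell, and all 11 AstroSub1 cells of that replicate held at least 1. Choroid plexus markers were likewise high in the other cells of FT replicate 4 (20.8) and of Sham replicate 4 (6.11), and at 0.213 to 1.30 in the other cells of the other replicates of the test. Their part in the AstroSub1 values was not tested.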

How the results depend on the processing

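The count of called genes depended on the setting. Against 1 gene, 0 were called with DESeq2, with limma on either pseudocount, with library totals only (the smallest adjusted p was 0.203), with a mean of at least 1 UMI per 10000, at an adjusted p of 0.05, with at least 10 cells per replicate, with the written filter of the study and with the replicate block. There were 2 calls without a filter on low genes (Gsn and Ttr), 4 with at least 1 cell per replicate, and 2 in low-ribosomal cells alone (Fos and an unnamed locus), a setting chosen after seeing the data. Leaving out 1 replicate gave 0 to 10 calls, 0 without Sham replicate 1 and likewise Sham replicate 2, 3 when FT replicate 5 was dropped and 10 when Sham replicate 5 was. The 1 call left without FT replicate 2 or Sham replicate 4 was another gene than Gsn, as was the 1 call in cells with at least 2% ribosomal UMIs (Hba1) and with the low-ribosomal share as a covariate (Hspb1). RLE size factors kept 1. The cause of these changes was not tested. The interaction with all other dorDG cells gave 0 calls in every alternative run (77 to 200 genes at an unadjusted p under 0.05). With limma and a pseudocount of 0.01 the median log2 fold change of all genes was 0.11.

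Gsn was higher in FT in all 23 alternatives (log2 fold change 1.51 to 3.34, adjusted p 0.00621 to 0.999) and was called in 7. Gene directions turned mostly near 0. In cells with at least 2% ribosomal UMIs the log2 fold change was -0.20 for Slc1a3, 0.19 for Slc1a2, -0.044 for Fos, -0.074 for S100b and -0.31 for Ntrk2. In low-ribosomal cells it was -0.28 for Aqp4, -0.55 for Gfap, -0.18 for Ntrk2 and -0.13 for Cox4i1. With the low-ribosomal share as a covariate (added after seeing the data) it was -0.16 for Slc1a3, -0.025 for Gja1, -0.020 for Clu, -0.0068 for Aldoc, -0.10 for S100b and -0.48 for Ntrk2. Slc1a3 was at -0.044 with at least 10 cells per replicate and at -0.060 with the written filter. Ntrk2 was at -0.048 with library totals only, -0.018 with at least 1 UMI per 10000, -0.22 with at least 10 cells per replicate and -0.17 with the written filter. Leaving out 1 replicate gave -0.044 to 0.46 for Slc1a3 and -0.22 to 0.37 for Ntrk2.

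The AstroSub1 share of cells differed by -0.294 to 1.76 percentage points when 1 replicate was left out, and by -0.294 with the replicate block. The BergGlia share differed by -9.18 points among low-ribosomal cells (0.131 to 10.6 leaving out 1 replicate). The ribosomal share differed by -0.390 points in cells with at least 2% ribosomal UMIs (0.244 to 0.879 leaving out 1). The oxphos share reached p = 0.0286 with cells weighted equally (0.699 points, exact permutation) and ranged from 0.356 to 0.650 leaving out 1, with p = 0.0286 without Sham replicate 4. The low-ribosomal share differed by -26.5 to -13.8 points leaving out 1, with p = 0.0286 without Sham replicate 5. The difference in median UMIs per cell was 828 to 1200 leaving out 1, 1663 with the written filter, 679.5 in cells with at least 2% ribosomal UMIs, 161 in low-ribosomal cells and 1021 with the replicate block (p = 0.125, the smallest that sign flips over 4 numbers allow, exact permutation).

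The numbers of genes 2-fold apart from BergGlia were 635, or 1731 with detection in 10% of cells. For the replicate block, samples with the same number deviated together with correlations of -0.01 to 0.04 across genes. Not every sample correlated best with its own number. Choroid plexus markers in the other dorDG cells were high in both samples numbered 4 (20.8 in FT, 6.11 in Sham). For its frozen bulk tissue, the study states that matching FT and Sham samples were handled in parallel. Whether dorDG samples of the same number shared handling was not tested. The block gave 0 calls (Gsn at a log2 fold change of 2.26, adjusted p = 0.509, edgeR). The FT test in BergGlia and its interaction with AstroSub1, with all their alternatives, and the interaction in cells with at least 2% ribosomal UMIs were not run, for lack of replicates with 5 cells. The median gene rested on 29 UMIs, which limits the precision of single genes.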
